A study of Mus musculus with 8 samples.

Results

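The genes described here are 10 immediate early genes of mouse liver, Fos, Fosb, Jun, Junb, Jund, Egr1, Egr2, Atf3, Ier2 and Ier3. They were chosen by name, with earlier results of these data known, as every non-control probe whose gene name in the scanner files is 1 of the 10. All 10 were found, each with 1 probe, among 55681 probes that carry 34779 gene names, and all 10 were tested. RNA was measured on 8 1-colour arrays. The 4 samples labelled AdLeXis received an adenovirus for LeXis, which is a long non-coding RNA whose gene neighbours Abca1, the cholesterol exporter. The other 4, labelled AdGFP, received one for green fluorescent protein. All came from bl6 mice that were 12 weeks old and fed chow, with liver RNA from day 6. Every sample, control included, had thus received a virus, and none was untreated. The protocol text speaks instead of a control and a Raly-directed construct, so titles, whose groups match the treatment tag, set the groups. Whether each sample was its own animal is not said, and p-values then reflect only the spread among these 8 arrays, part of which may be technical.

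Immediate early genes are switched on within minutes of a growth signal, stress or injury, from factors already present in the cell, and their messages are short-lived. FOS and JUN proteins pair through leucine zippers to form the transcription factor AP-1, EGR1 and EGR2 bind GC-rich sites through zinc fingers, and ATF3 is a stress-induced relative of the AP-1 proteins. Liver is a classic setting for them, since Fos, Jun and Egr1 are induced early in regeneration after part of the organ is removed. IER2 is a nuclear protein and IER3 a regulator of cell survival, so the 10 are not all DNA-binding factors.

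With the processing reported here Egr1, Fos, Egr2, Atf3 and Ier3 fell by more than 2-fold, the largest falls of the 10. Egr1 had no start site listed, and for the size of their falls the upstream sequences of the last 4 are shown. They are the 250 bases before the RefSeq start site (GRCm38.p6), 5′ to 3′ on the gene's strand. Capitals mark matches on either strand to the CArG box of serum response factor, the core TGACG of the cyclic AMP response element, the AP-1 site TGANTCA, the EGR site GCGNGGGCG and the NF-kB site. The windows are chr12:85473640-85473889 on the plus strand for Fos, chr10:67537619-67537868 on the plus strand for Egr2, chr1:191183334-191183583 on the minus strand for Atf3 and chr17:35821463-35821712 on the plus strand for Ier3. Of 5 start sites listed for Egr2, the windows of 4 hold a CArG box, and the one shown is the first of 3 that overlap and share it.
Fos: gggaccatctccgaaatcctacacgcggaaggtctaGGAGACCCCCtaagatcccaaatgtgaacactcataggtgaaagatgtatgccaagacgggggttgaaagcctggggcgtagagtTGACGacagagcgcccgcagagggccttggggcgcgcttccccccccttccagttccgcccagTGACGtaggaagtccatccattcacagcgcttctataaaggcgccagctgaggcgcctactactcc
Egr2: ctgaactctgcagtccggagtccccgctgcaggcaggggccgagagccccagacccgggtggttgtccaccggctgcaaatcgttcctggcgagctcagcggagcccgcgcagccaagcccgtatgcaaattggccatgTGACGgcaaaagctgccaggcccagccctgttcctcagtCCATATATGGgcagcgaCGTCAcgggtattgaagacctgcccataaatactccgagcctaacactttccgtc
Atf3: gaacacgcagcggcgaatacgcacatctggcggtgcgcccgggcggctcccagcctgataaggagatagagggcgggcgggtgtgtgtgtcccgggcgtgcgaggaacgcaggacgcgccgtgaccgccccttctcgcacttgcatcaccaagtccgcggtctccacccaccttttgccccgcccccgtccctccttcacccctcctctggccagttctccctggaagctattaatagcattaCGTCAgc
Ier3: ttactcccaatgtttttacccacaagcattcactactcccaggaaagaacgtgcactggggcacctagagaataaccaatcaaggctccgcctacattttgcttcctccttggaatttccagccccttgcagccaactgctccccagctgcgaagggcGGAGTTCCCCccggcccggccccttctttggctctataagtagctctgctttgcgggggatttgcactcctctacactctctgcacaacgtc
The Egr2 window holds a CArG box from 72 to 63 bases before the start and TGACG at 111 to 107 and 55 to 51 bases before it. Fos has TGACG at 129 to 125 and 66 to 62 bases before its start, and Atf3 has it at 7 to 3. Ier3 has an NF-kB match at 92 to 83 bases and none of the other motifs, and Fos has an NF-kB match at 214 to 205. Over the 8 members with an entry in the table, 5 hold TGACG in some window and 1 a CArG box, against 17.8% and 1.47% of 32851 windows of the same length. The whole cyclic AMP response element TGACGTCA was in 0 of the 8, against 1.55% of windows. Egr1 and Ier2 had no entry, and bases further upstream than 250 were not searched, so a site there would be missed. An NF-kB match was in 4 of the 8, an EGR match in 1 and an AP-1 match in 0, against 7.25%, 4.7% and 6.75% of windows. A member counts if any of its windows matches, which can only raise the count, whereas the shares are per window. Egr2, with 5 windows, alone gives the CArG count and enters the NF-kB count through a window not shown. A match is a description of the letters and was not tested as a binding site.

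Of the 10 genes, 9 were lower in AdLeXis and 0 higher (limma, adjusted p under 0.05 over 23901 genes), with a median log2 difference of -0.89, against -0.0021 over all genes tested. Over all genes 8.79% were called lower and 8.73% higher. These shares are a background and not a test, since the members were chosen with earlier results of these data known. For the same 9 genes all 4 AdLeXis arrays lay below all 4 AdGFP arrays, a separation that 12.3% of all genes show. Ier2 was the 1 member not called. Adjusted over the 34440 kept probes, where 14.9% were called, 8 members were lower and Jund was not (limma adjusted p = 0.0519).

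All levels below are log2 processed signal after each array was scaled on its 75th percentile, so a fall is relative to the other genes of the array. Before scaling, that percentile was 220 to 297 for AdGFP and 381 to 448 for AdLeXis. Without scaling, the median gene was 0.74 higher in AdLeXis, 2 members were called lower (Fos and Egr2) and 1 higher (Ier2). All arrays were on 1 slide and in 1 scan, with the AdGFP arrays in one row and the AdLeXis arrays in the other, so row and group cannot be told apart. No spot was saturated. On the locus itself, 3 probes of the lincRNA region beside Abca1 stood at 9.70 to 10.49 in AdLeXis and at 0.78 to 2.58 in AdGFP. Each was well above background on 4 AdLeXis arrays and on 0 or 1 AdGFP arrays, which matches the labels. A probe for 4930412L05Rik within the same region stood at 2.04 in AdLeXis and 1.38 in AdGFP, well above background on 0 arrays.

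The probes lie, in the mm9 coordinates of the files, on chromosome 12 for Fos (86817900 to 86817959), 7 for Fosb (19888168 to 19888227), 4 for Jun (94716928 to 94716987) and 10 for Egr2 (67004798 to 67004857). Those for Junb (87501881 to 87501940), Jund (73224436 to 73224495) and Ier2 (87186214 to 87186273) are all on chromosome 8. The Egr1 probe is on chromosome 18 (35024395 to 35024454), that of Ier3 on 17 (35959528 to 35959587) and that of Atf3 on 1 (192994547 to 192994606). Each is annotated to the gene's RefSeq messenger RNA. The exon or untranslated region of each probe was not looked up, since no annotation of that build was used.

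**Figure D1:**
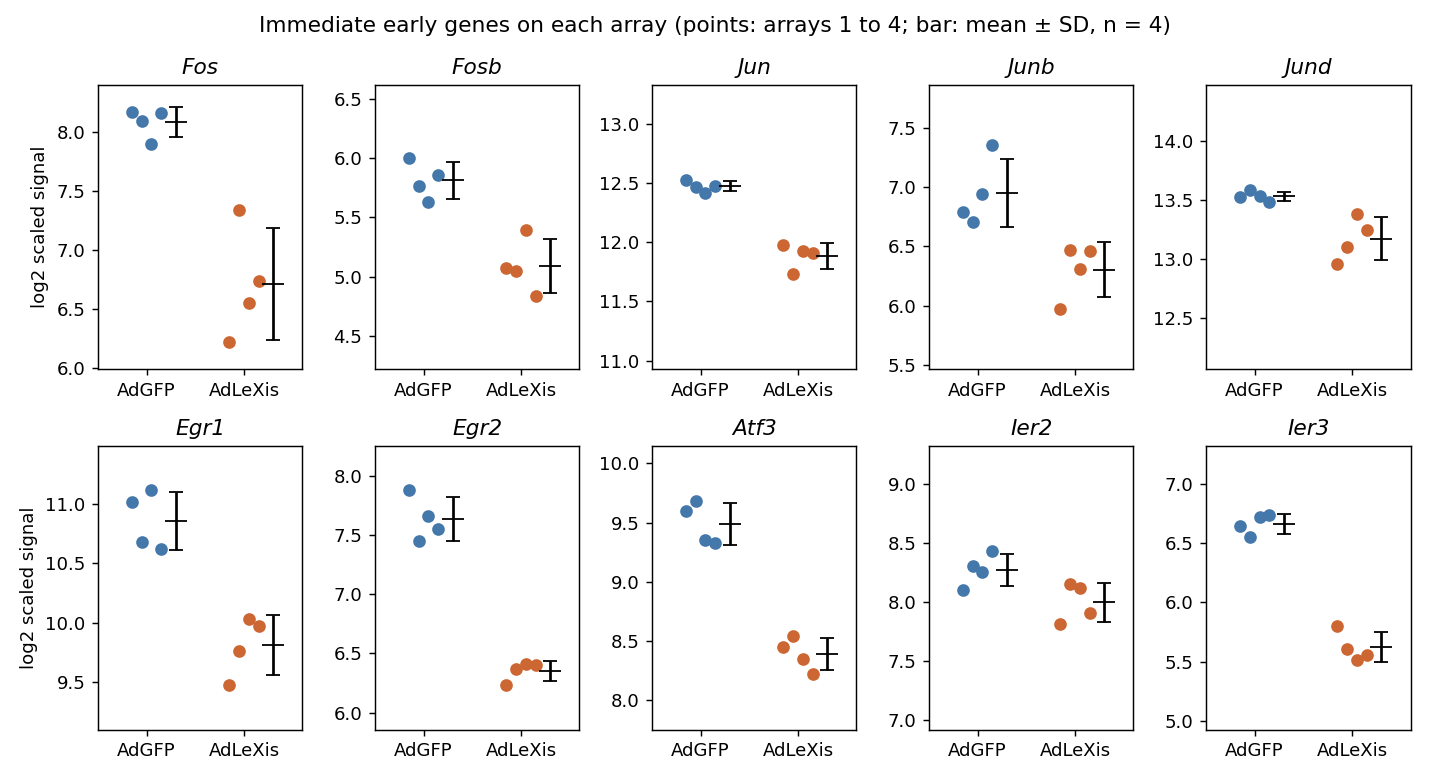
Log2 scaled signal of each of the 10 genes on every array, with AdGFP in blue and AdLeXis in orange. Points are arrays 1 to 4 from left to right, bars are mean ± SD (n = 4), and every panel spans the same range of log2 units. Only for Ier2 do the groups overlap.

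The FOS family partners of AP-1 fell. Fos, whose protein cannot pair with itself and needs a JUN partner, stood at 8.17, 8.09, 7.90 and 8.16 on AdGFP arrays 1 to 4 and at 6.22, 7.34, 6.55 and 6.74 on AdLeXis arrays 1 to 4. Every AdLeXis array was below every AdGFP array, and array 2 was the highest of the AdLeXis group. The log2 difference was -1.37 (SE 0.22, limma adjusted p = 0.0051), 2.58-fold lower, the largest fall in size of the 10, and 0.318% of all genes tested had a more negative difference. Fos is printed as 10 spots on each array, with an SD over spots of 0.036 to 0.12 log2 units on AdLeXis arrays and 0.080 to 0.13 on AdGFP arrays. The SD between arrays was 0.47 in AdLeXis, above every spot SD there, and 0.13 in AdGFP. Each array value is the mean of 8 to 10 spots, so its spot error is smaller than the spot SD.

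Fosb, a close relative of Fos, stood at 6.00, 5.77, 5.63 and 5.86 in AdGFP and at 5.07, 5.05, 5.39 and 4.84 in AdLeXis. The groups did not overlap, and AdLeXis array 3 came nearest to the AdGFP values. It fell by 0.73 (SE 0.13, limma adjusted p = 0.00902). With normexp background correction and quantile scaling the difference was -0.25, still called.

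The 3 JUN genes differed by -0.65 to -0.36, all called. Jun, which can pair with itself or with FOS proteins, stood at 12.53, 12.47, 12.42 and 12.48 in AdGFP and at 11.98, 11.73, 11.93 and 11.91 in AdLeXis. It varied least of all members between arrays of one group (pooled SD 0.083), and no array bridged the gap. The difference was -0.59 (SE 0.08, limma adjusted p = 0.00312), 1.51-fold lower.

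Junb, a weaker activator that can oppose JUN, stood at 6.79, 6.71, 6.94 and 7.36 in AdGFP and at 5.97, 6.47, 6.31 and 6.46 in AdLeXis. The groups were separated by the small gap between AdGFP array 2 and AdLeXis array 2. It fell by 0.65 (SE 0.17, limma adjusted p = 0.0348). The call was lost without AdGFP replicate 1, 3 or 4 or any 1 AdLeXis replicate, with limma adjusted p = 0.0542 to 0.0713 and differences of -0.51 to -0.70. It was also lost without the filter on dim probes (limma adjusted p = 0.066).

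Jund, the most constitutive of the JUN genes, stood at 13.52, 13.58, 13.53 and 13.48 in AdGFP and at 12.96, 13.10, 13.38 and 13.24 in AdLeXis. The AdGFP arrays were close together, and AdLeXis array 3 lay just below them. The difference was -0.36 (SE 0.10, limma adjusted p = 0.0436), 1.28-fold lower. It was not called without any 1 AdGFP replicate or without AdLeXis replicate 1, 2 or 4 (limma adjusted p = 0.07 to 0.104), nor under cyclic loess (limma adjusted p = 0.0529). The call was also lost without the filter on dim probes (limma adjusted p = 0.0818) and with a block on replicate number (limma adjusted p = 0.083).

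Both EGR genes fell. Egr1, a zinc finger factor induced by growth factors, stood at 11.02, 10.68, 11.12 and 10.62 in AdGFP and at 9.47, 9.76, 10.03 and 9.97 in AdLeXis. The lowest AdGFP array lay well above the highest AdLeXis array. The difference was -1.05 (SE 0.16, limma adjusted p = 0.00475), 2.08-fold lower.

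Egr2, its relative known from nerve myelination and lymphocytes, stood at 7.88, 7.45, 7.66 and 7.55 in AdGFP and at 6.23, 6.37, 6.41 and 6.40 in AdLeXis. The 4 AdLeXis values lay within a narrow band below all AdGFP values. It fell by 1.28 (SE 0.11, limma adjusted p = 5.11e-04), and its unadjusted p ranked 71 of 23901 genes. The difference was -0.54 with normexp and quantile scaling, still called.

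Atf3, a stress-induced repressor and partner of JUN proteins, stood at 9.60, 9.68, 9.35 and 9.33 in AdGFP and at 8.45, 8.54, 8.35 and 8.22 in AdLeXis. No array of either group came near the other. The difference was -1.10 (SE 0.12, limma adjusted p = 0.00118), 2.14-fold lower.

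Of the IER genes, only Ier3 was called, and the difference between the 2 genes was not tested. Ier3 stood at 6.65, 6.55, 6.72 and 6.74 in AdGFP and at 5.80, 5.61, 5.51 and 5.56 in AdLeXis, with a wide gap between the groups. It fell by 1.05 (SE 0.09, limma adjusted p = 5.45e-04), 2.07-fold lower. With normexp and quantile scaling the difference was -0.70, still called.

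Ier2 stood at 8.10, 8.30, 8.25 and 8.43 in AdGFP and at 7.81, 8.15, 8.12 and 7.91 in AdLeXis. AdGFP array 1 lay below AdLeXis arrays 2 and 3. The difference was -0.27 (95% interval -0.52 to -0.015, limma adjusted p = 0.135), and it was 0.072 with normexp and quantile scaling and 0.031 with normexp and the 75th percentile. A fall as large as that of Jund lies within its interval.

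**Figure D2:**
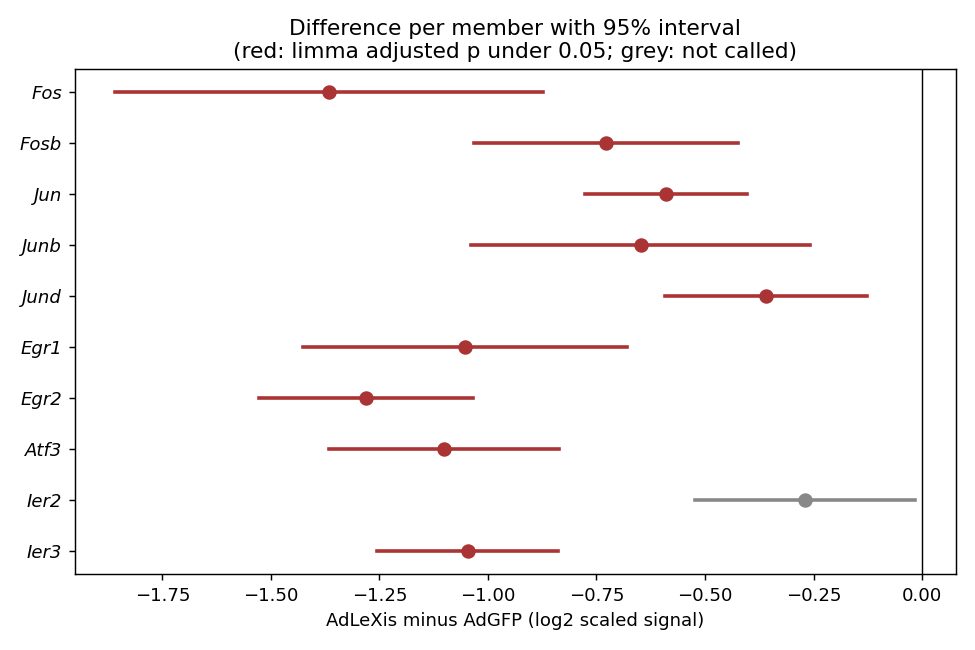
Log2 difference, AdLeXis minus AdGFP, for each of the 10 genes (points) with the 95% interval of the limma fit (lines). Red marks an adjusted p under 0.05. The differences run from -1.37 for Fos to -0.27 for Ier2.

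Within a group, no single array set the level of all members. AdLeXis array 1 was the lowest of its group for 6 of 10 members and the highest for 2, and AdGFP array 1 was the highest for 4 and the lowest for 1. Fos had the largest pooled within-group SD (0.34). Over the 8 arrays, after the group mean was subtracted, Junb and Ier2 correlated with Fos at 0.53 each, Egr1 at 0.10 and Jun at -0.79. These coefficients rest on 8 arrays that share a slide and scaling and are descriptive. By the same measure the highest coefficients with Fos were those of Mmp23 (0.985), a lincRNA region on chromosome 1 (0.984) and the ATF7-interacting gene Atf7ip (0.979). Kdelr3 (0.974) and Zfp647 (0.971) came next. These genes were picked for the highest coefficients, which leave out the difference between groups. In that difference Kdelr3 was called lower in AdLeXis (-0.64), whereas Atf7ip (0.35) and Zfp647 (0.66) were called higher. Mmp23 (-0.35) and the lincRNA region (-0.00195) were not called.

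Other genes of the same system were described as 5 lists, whose counts stand beside 8.79% of all genes called lower and 8.73% higher. Of 11 other AP-1 and small MAF genes, 7 were lower in AdLeXis and 0 higher, with a median log2 difference of -0.55. Batf, an AP-1 factor of lymphocytes and dendritic cells, fell by 0.80 (SE 0.09, limma adjusted p = 0.00169). Jdp2, a JUN dimerization partner, fell by 0.55 (limma adjusted p = 0.0132). The FOS relative Fosl2 fell by 0.53 (limma adjusted p = 0.014) but gave -0.29 and was not called with the mean of its probes. The lower count was 4 without AdGFP replicate 1, AdLeXis replicate 2 or AdLeXis replicate 4, and without scaling between arrays 0 were lower and 4 higher.

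Of 19 further immediate early genes, 16 were tested, 6 were lower and 0 higher, with a median of -0.15. Egr3, Egr4 and Nr4a3 had no probe that passed the filter on dim probes. Ccn1, which encodes a secreted matrix protein, stood at 8.79 ± 0.17 (SD, n = 4) in AdGFP and fell to 7.71 ± 0.12 (SD, n = 4) in AdLeXis (limma adjusted p = 0.00111). The orphan nuclear receptor gene Nr4a2 fell by 1.11 (SE 0.19, limma adjusted p = 0.00713) and the zinc finger gene Klf6 by 0.56 (SE 0.08, limma adjusted p = 0.00387). Myc gave -0.13, Sgk1 -0.018 and Klf10 0.42, none called, and these 3 were chosen after their values were seen. Without scaling 0 of the 16 were lower and 9 higher.

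Among 16 tested feedback inhibitors of this signalling, 5 were lower and 1 higher, with a median of -0.18. They included the MAP kinase phosphatase genes Dusp2, which fell by 0.80 (SE 0.12, limma adjusted p = 0.00387), Dusp6, by 0.74 (SE 0.13, limma adjusted p = 0.00831), and Dusp10, by 0.60. Under normexp settings the smallest differences were -0.48 for Dusp2, -0.41 for Dusp6 and -0.36 for Dusp10, all called. The RAS pathway inhibitor Spred2 was called higher by 0.46 (limma adjusted p = 0.0328), a direction that turned to -0.055 with normexp and the 75th percentile. That call was lost when any of AdGFP replicates 2 to 4, or of AdLeXis replicates 1, 2 and 4, was left out. The number lower was 3 when any of AdGFP replicates 1 to 3 or AdLeXis replicates 1, 2 and 4 was left out, and without scaling 0 were lower and 9 higher.

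Of 28 upstream factors and kinases, 1 was lower and 3 higher, with a median of -0.067, beside 17.5% of all genes called in either direction. The serum response factor gene Srf gave -0.14 and Creb1, which binds the cyclic AMP response element, -0.080, neither called and both named after their values were seen. The ERK1 gene Mapk3 was called higher by 0.38 (SE 0.09, limma adjusted p = 0.0239) and Map2k6, a kinase of the p38 pathway, by 0.57 (limma adjusted p = 0.0443). Map3k5, a stress-activated kinase, was called higher by 0.40 on its brightest probe. The groups overlapped for Map2k6 and Map3k5. Of 20 other processing settings Mapk3 was called under 13, Map2k6 under 12 and Map3k5 under 8. The other kept Map3k5 probe gave -0.12, and the mean of both gave 0.14 and was not called (limma adjusted p = 0.355). With arrays scaled on their medians Mapk3 gave 0.30 and Map3k5 0.31, neither called. With 1 array left out, none of the 28 was called higher when that was AdGFP 1, AdGFP 2 or AdLeXis 2, and 1 was when it was AdLeXis 1, 3 or 4. A block on replicate number also left 0 higher, whereas without scaling 0 were lower and 26 higher. Elk1, a partner of serum response factor, was called lower on its brightest probe (-0.58), at 18.47 in AdGFP and 17.89 in AdLeXis. Its other kept probe, at 3.49 and 3.79, gave 0.30. The brightest probe lies at the level of hepatocyte markers such as Serpina1c (18.75 in AdGFP), and whether it reads Elk1 was not tested. Elk1 was -0.081 under quantile scaling and -0.067 with normexp and quantile scaling, where it was not called.

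Of 17 tested textbook targets of AP-1 or EGR1, 6 were lower and 0 higher, with a median of -0.36. The monocyte chemokine gene Ccl2 stood at 10.83 ± 0.12 (SD, n = 4) in AdGFP and fell to 9.30 ± 0.19 (SD, n = 4) in AdLeXis (limma adjusted p = 3.6e-04). Cyclin D1, Ccnd1, fell by 1.48 (SE 0.15, limma adjusted p = 0.00117) and the cytokine gene Tnf by 0.98 (SE 0.19, limma adjusted p = 0.0111), the latter -0.46 with normexp and quantile scaling. Spp1, which encodes the secreted protein osteopontin, gave -0.060 (limma adjusted p = 0.912) and was named after its value was seen. Without scaling 2 of the 17 were lower and 6 higher.

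**Figure D3:**
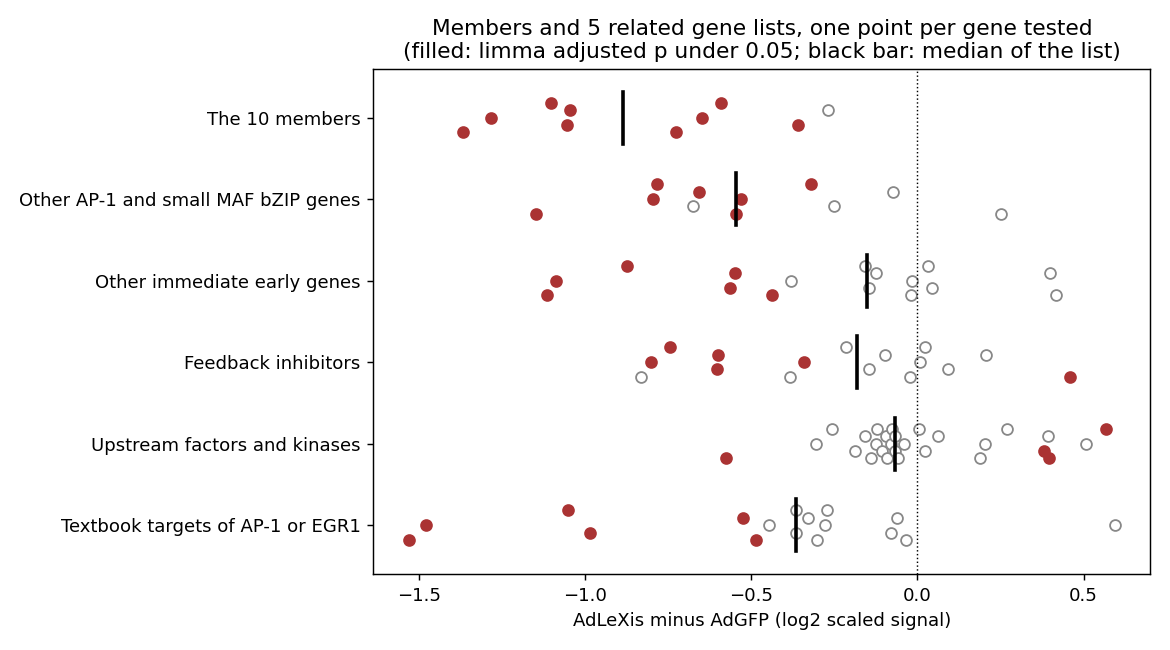
Log2 difference, AdLeXis minus AdGFP, of every tested gene in the 10 members and the 5 related lists. Filled points passed the limma threshold, open points did not, and the black bar is the list's median, which is -0.89 for the members and -0.067 for upstream factors and kinases.

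Liver is a mixture of cells, and in bulk RNA fewer cells of a type and less RNA per cell cannot be told apart. Of 12 T and natural killer cell genes, 10 were lower in AdLeXis and 0 higher, and their summed scaled signal ran from 9860 to 10500 in AdLeXis and from 18700 to 19500 in AdGFP. Cd4 gave -0.83 and Nkg7 -1.09. The 2 not called were the natural killer cell genes Klrb1c (-0.046) and Ncr1 (0.73), at 5.65 and 3.36 in AdGFP. Macrophage genes, Kupffer cells included, numbered 12, of which 5 were lower and 0 higher. Their sum was 89000 to 113000 in AdLeXis and 108000 to 142000 in AdGFP, overlapping. Cd5l gave -0.34 and Csf1r -0.25, neither called. Among genes of resident Kupffer cells, Timd4 was called lower (-1.70), whereas Clec4f (0.095) and Vsig4 (0.50) were not called. Of 12 hepatocyte markers, 9 were lower and 0 higher, with sums of 1870000 to 2170000 and 2790000 to 2930000. Alb gave -0.61 and Serpina1c -0.57. The 3 not called, Cps1, Hnf4a and Tat, stood at 14.58, 15.69 and 16.04 in AdGFP, against 19.10 for Alb, while Apob at 15.65 was called. A linear sum weighs the brightest markers most. The Elk1 probe of like level, 18.47 in AdGFP, gave -0.58 as reported and -0.081 under quantile scaling. Whether the hepatocyte falls depend on the scaling was not tested. Of 5 B cell, 6 neutrophil and 9 endothelial markers 0 were called, of 9 stellate cell markers 2 were lower, and of 5 tested bile duct markers 1 was lower. Over all genes tested 8.79% were called lower and 8.73% higher, and a count of 1 of 5 is too small to be told from that. Every marker tested had passed the filter on dim probes, and the part of these changes in the falls of the immediate early genes was not tested.

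**Figure D4:**
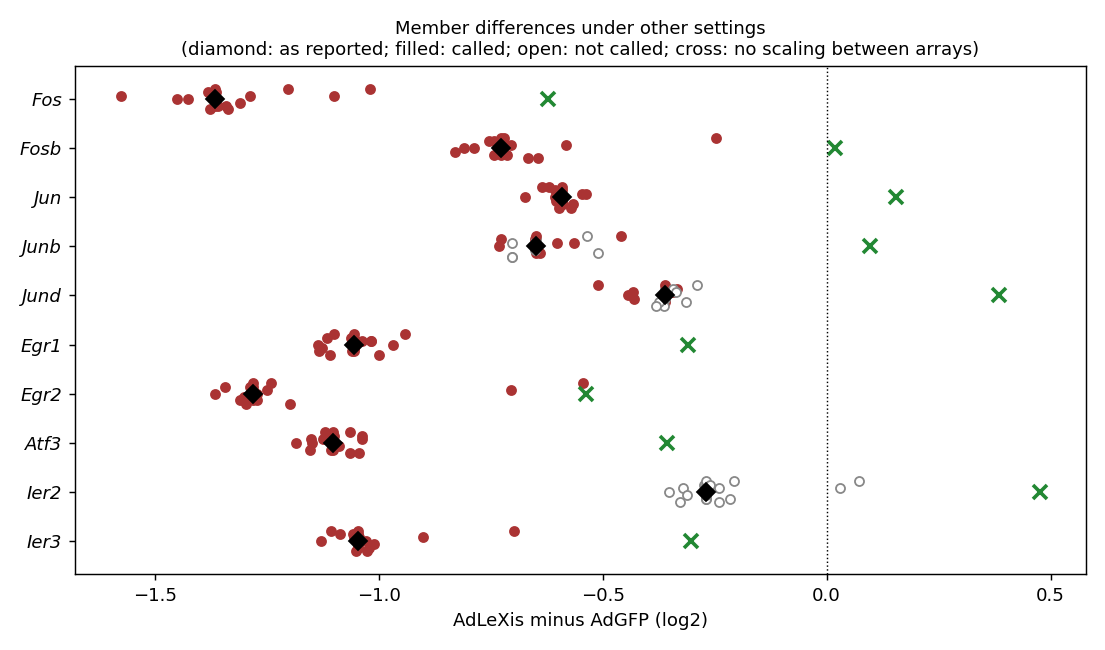
Log2 difference of each of the 10 genes as reported (diamond), under 20 other processing settings (filled when called, open when not) and without scaling between arrays (cross). The 7 genes other than Junb, Jund and Ier2 stay filled under all 20, while the crosses sit to the right of the diamonds by about the 0.74 that the median gene moved.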

How the data were processed

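As deposited, each array's values are linear spot intensity from Agilent Feature Extraction 11.5.1.1, which, per the file headers, subtracted and detrended the background. They were not scaled between arrays. Spot flags are from the same files as deposited. The deposited value table holds the same intensity (relative difference 0). Log2 intensity was shifted to a common 75th percentile, taken over the 59305 spots that are not controls. After removal of 127 to 256 outlier spots an array, spots of a probe were averaged. A probe was kept (34440 were) if 4 or more arrays had it well above background and 2 or more arrays per group measured it, and the brightest represented each of 23901 genes, named through RefSeq accessions where possible. Groups were compared with limma 3.58.1 in R 4.3.3, two-sided, with Benjamini-Hochberg adjustment over all genes and a threshold of 0.05. The number of arrays limits the precision. The fit was tested on simulated data. List genes named are the up to 3 called members of smallest p in each direction. Cell markers named are the 2 brightest, with others added after their values were seen. The members and lists were chosen with earlier results of these data known. Numbers of replicates did not pair the arrays: deviations of same-numbered arrays correlated at 0.0012 to 0.12. Alternatives covered scaling, background correction, the filter, probe choice, variance model, array weights, a replicate block and each array left out.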

Additional observations from a re-analysis of the deposited data

How the results depend on the processing

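Under 20 other processing settings 7 to 9 members were called lower and 0 higher, with 7 to 8 lower and 0 higher when 1 array was left out. Of the 20, the deposited values hold the same intensity and could only repeat the reported fit. Averaging a gene's kept probes could not move a member's difference, since each member has 1 probe. Fos, Fosb, Jun, Egr1, Egr2, Ier3 and Atf3 were called under all 20, Junb under 12 and Jund under 10. Ier2 was called under 0 of them, reached 0.072 with normexp then quantile, and reached 0.031 with normexp then the 75th percentile, a setting in which Spred2 gave -0.055. With no scaling between arrays, chosen after seeing that AdLeXis arrays were brighter, the median gene moved by 0.74, 2 members were called lower and 1 higher, and 107 genes were lower and 18990 higher. Differences then were 0.018 for Fosb, 0.15 for Jun, 0.097 for Junb, 0.39 for Jund, 0.48 for Ier2, 0.18 for Klf6, 0.20 for Jdp2, 0.22 for Fosl2, 3.5e-04 for Dusp6, 0.14 for Dusp10 and 0.17 for Elk1, all below the shift of the median gene. With arrays scaled on their medians 2675 genes were lower and 1152 higher, against 2100 and 2087 as reported. With normexp then the 75th percentile 9629 genes were lower and 2970 higher, and the median gene moved to -0.19, beside a median of -0.65 for the members. Leaving out 1 array gave 1272 to 2030 genes lower and 1242 to 2076 higher: 1357 lower without AdGFP replicate 1, 1388 lower without AdGFP replicate 2, 1354 higher without AdLeXis replicate 2, and 1272 lower and 1242 higher without AdLeXis replicate 4. With the replicate number as a block 8 members were called lower, Jund was not (limma adjusted p = 0.083), and 1625 genes were lower and 1517 higher. Among the AdGFP arrays only array 3 correlated best with the AdLeXis array of the same number. The causes of these shifts were not tested. All members were well above background on every array, and Fosb gave -0.25 to -0.83 over the 20 settings.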
